A study of Mus musculus with 6 samples.

Results

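The clustered protocadherins are the genes of the *Pcdha* (alpha), *Pcdhb* (beta) and *Pcdhg* (gamma) clusters. Members were chosen by symbol, and a member needed 6 or more reads in some library. The annotation of the deposited counts held 58 such genes, of which 55 passed, out of 21876 genes that passed the same filter. They comprised 12 of 14 alpha, 22 of 22 beta and 21 of 22 gamma genes. The libraries came from wild-type mouse primary neurons, prepared from the cortex and hippocampus of C57BL/6N embryos at embryonic day 18. A group of 3 cultures (shCtrl) had been transduced with a lentivirus that expressed a scrambled short hairpin RNA (shRNA), and 3 cultures (shPla2g4e) with one that expressed an shRNA against *Pla2g4e*, a phospholipase A2 gene of the PLA2G4 family. Transduction took place at 4 days in vitro (DIV) and collection at DIV14. The knockdown group rested on a single shRNA sequence, sh2, in a culture that also held glia, and nothing in the labels says that the 3 libraries of a group came from separate litters, so that p-values measure the spread between these libraries only.

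Clustered protocadherins are cadherin-like adhesion proteins of the neuronal surface. They pair within a membrane in many combinations and bind only a matching combination on another membrane, which lets a neuron recognise and avoid its own branches. Each alpha or gamma transcript joins a variable exon of its own, which encodes the extracellular and transmembrane parts, to constant exons that are common to the cluster, whereas each beta gene is a single exon and lacks the constant cytoplasmic part. A neuron switches on a few of the alternate alpha, beta and gamma promoters, a choice tied to promoter methylation, CTCF and cohesin, while the C-type genes at the ends of the alpha and gamma clusters are used more uniformly.

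Between 17054717 and 23570180 reads were counted per library. *Pla2g4e* itself, the targeted gene, ranged from 35.1 to 38.0 CPM (reads scaled to a common library size by TMM factors) over the shCtrl libraries and from 14.1 to 21.8 CPM over the shPla2g4e libraries, a log2 fold change of −0.99 (standard error 0.13, edgeR adjusted p = 1.24e-04). All 11 listed neuronal markers were present, including *Map2* with at least 1120 CPM in each library. Astrocyte markers were present too, with a summed level of 1979 to 3736 CPM, whereas microglial markers summed to 2.68 to 7.90 CPM and endothelial and mural markers to 28.9 to 83.5 CPM.

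The 3 clusters lie in tandem on the plus strand of chromosome 18, and positions are those of GRCm39 in the deposited counts. The first alpha gene starts at 37063237 and the alpha genes end at 37320714, the beta genes span 37397991 to 37657532, and the gamma genes span 37794846 to 37974926. Reads on exon bases that several genes share had not been counted, so that an alpha or gamma count comes from exon bases of its own, chiefly the variable exon, with 1886 to 3028 unshared exon bases per alpha member that passed and 1256 to 4614 per gamma member. Beta members had 1107 to 8695 such bases. The members that did not pass were *Pcdha4* with at most 4 reads, *Pcdha11* with at most 5 and *Pcdhga10* with 0 reads. *Pcdha4* had only 404 unshared exon bases, and *Pcdhga10* had 0, since other annotated genes cover it, so that its count says nothing of its expression.

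The clusters differed in the number of calls and in the size of the values, with most calls in the gamma cluster and the smallest values in the beta cluster. At an edgeR adjusted p under 0.01, 11 of 21 gamma members, 1 of 12 alpha members and 0 of 22 beta members were called lower, beside 4.0% of all 21876 genes tested. No member was called higher, beside 2.48% of all genes. The log2 fold changes of gamma members ran from −1.09 to −0.13 with a median of −0.72, those of alpha members from −1.24 to 0.52 with a median of −0.63, and those of beta members from −0.34 to 0.36 with a median of −0.08. The median over all genes tested was 0.03. The groups did not overlap, with shPla2g4e lower, in 16 of 21 gamma, 10 of 12 alpha and 1 of 22 beta members, beside 14.6% of all genes. At an unadjusted p under 0.05, edgeR gave 18 gamma, 9 alpha and 1 beta members, all lower, beside 12.9% of all genes lower at that p. Without shCtrl replicate 1, or without shCtrl replicate 2, 7 gamma and 0 alpha members were called lower. The calls so far left the replicate numbers out. A fit with the replicate number as a block paired the libraries by number. It called 14 of 21 gamma, 9 of 12 alpha and 0 of 22 beta members lower, beside 9.02% of all genes.

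**Figure D1:**
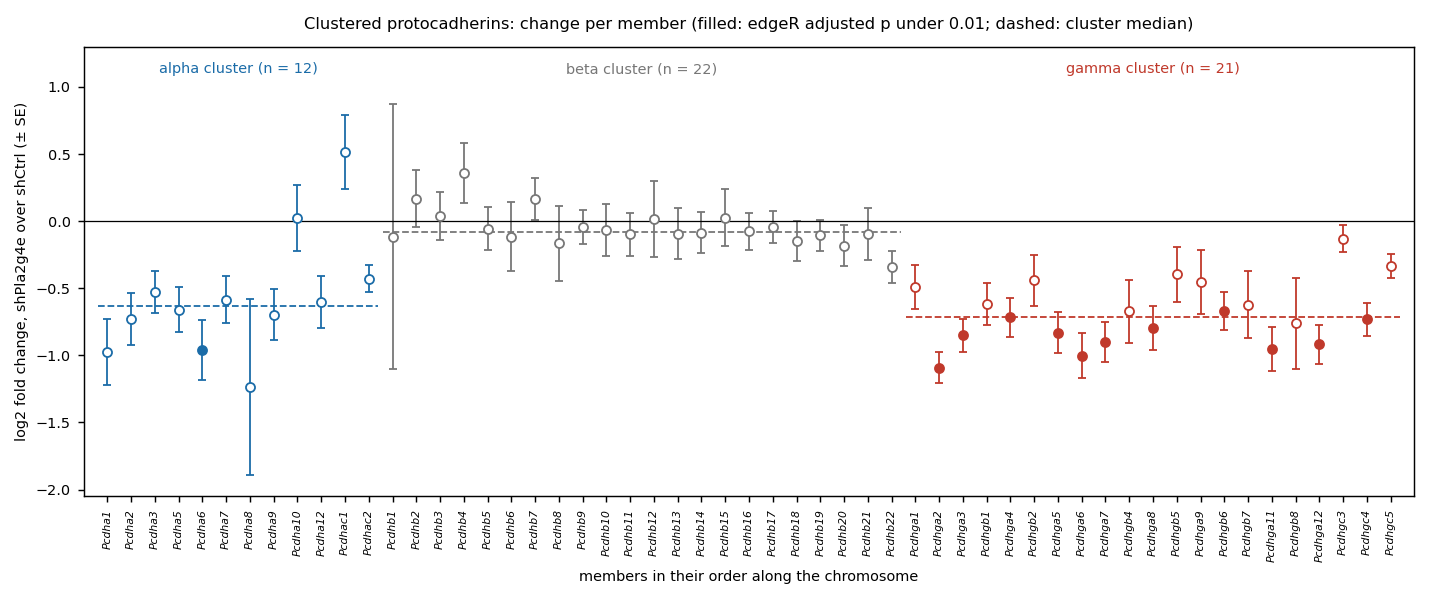
Log2 fold change (shPla2g4e over shCtrl) of the 55 members in their order along the chromosome, with standard errors from edgeR. Filled points passed an adjusted p of 0.01 and dashed lines are cluster medians. Beta members lie around 0, gamma members all lie below it, and 10 of 12 alpha members lie below it.

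Levels were compared between genes only as CPM per kb of unshared exon bases, in shCtrl cultures. The 4 most abundant members were C-type genes. *Pcdhgc3*, which is known in dendrite growth and as a partner of Axin1, had 34.2 ± 2.51 CPM per kb (SD, n = 3), *Pcdhac2*, known for the tiling of serotonergic axons, 26.3 ± 3.27, *Pcdhgc4*, which many neurons need for survival, 25.6 ± 3.83, and *Pcdhgc5*, 17.3 ± 1.18. The levels of *Pcdhac2* and *Pcdhgc4* did not differ beyond their spread. Unshared bases went beyond the variable exon in *Pcdhgc5* (4606, against a first exon of 2622 bases in its longest coding transcript) and *Pcdhgc4* (3477 against 2905). The order among the 4 genes therefore depends on which annotated bases are used. The remaining C-type gene, *Pcdhac1*, stood far below them at 0.894 ± 0.279 CPM per kb. Among the alternate genes, *Pcdhga3* (12.2 ± 1.90), *Pcdhga2* (11.5 ± 1.29) and *Pcdhga11* (10.3 ± 1.89 CPM per kb) led, and they did not differ beyond their spread. The top alternate alpha gene was *Pcdha3* with 5.17 ± 0.62 CPM per kb, and the top beta genes were *Pcdhb9* with 6.17 ± 0.40 and *Pcdhb20* with 3.94 ± 0.71. The median level was 4.73 CPM per kb over gamma, 3.21 over alpha and 1.83 over beta members in shCtrl cultures, against 2.75, 1.95 and 1.78 in shPla2g4e cultures.

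**Figure D2:**
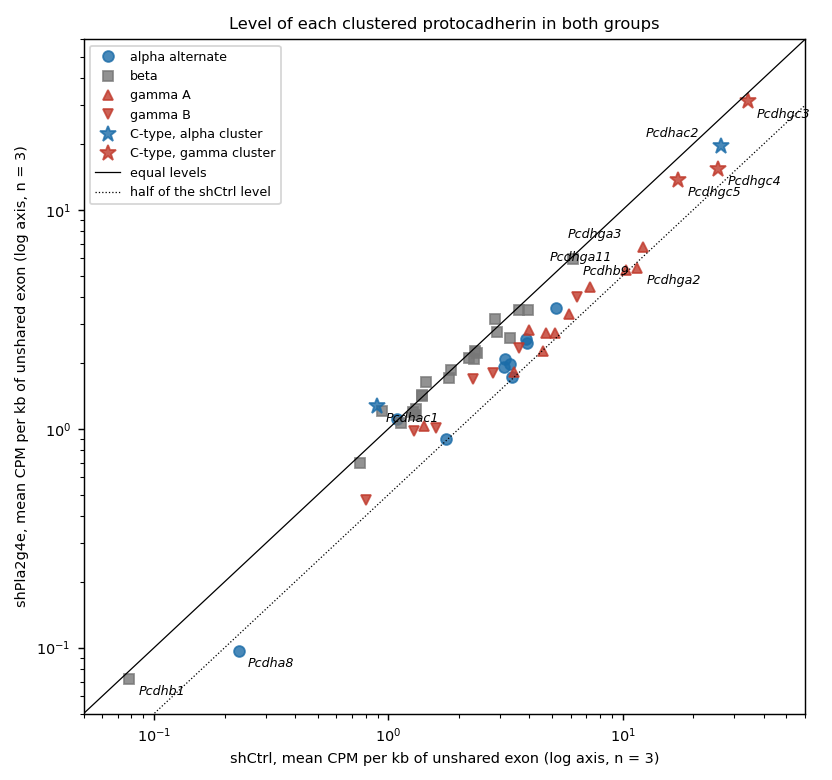
Mean level of each member in shCtrl (x) and shPla2g4e (y) cultures, in CPM per kb of unshared exon bases on log axes (n = 3 each). The solid line marks equal levels and the dotted line 50% of the shCtrl level. Beta members follow the solid line, whereas gamma A members lie between the lines or near the dotted line, such as *Pcdhga2* at 11.5 and 5.41 CPM per kb.

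The A subfamily of the gamma cluster held most of the calls. Of its 11 members that passed, 9 were called lower, beside 4.0% of all genes, and 10 with the block, beside 9.02%. The median log2 fold change of the 11 was −0.85. *Pcdhga2* (37802006 to 37974923) had 33.0, 29.7 and 26.3 CPM in the shCtrl libraries (replicate 1 first, as in each list) and 13.6, 14.01 and 14.1 CPM in those of shPla2g4e. Its groups were far apart, and its log2 fold change of −1.09 (standard error 0.11, edgeR adjusted p = 1.25e-05) had the smallest adjusted p of all members. *Pcdhga3* had 36.3, 32.6 and 26.6 CPM in shCtrl and 19.2, 16.8 and 16.8 CPM in shPla2g4e libraries, a log2 fold change of −0.85 (standard error 0.12, edgeR adjusted p = 2.52e-04). Both encode isoforms that add to the recognition code of the cell surface.

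The next members of the A subfamily by p were lower by similar amounts. *Pcdhga12* had 16.2, 14.04 and 12.2 CPM in shCtrl and 7.45, 7.44 and 7.54 CPM in shPla2g4e libraries (log2 fold change −0.92, edgeR adjusted p = 5.55e-04). *Pcdhga7* had 13.1, 15.05 and 11.4 CPM in shCtrl and 7.03, 7.26 and 6.86 CPM in shPla2g4e libraries (log2 fold change −0.90, edgeR adjusted p = 7.44e-04). In each of them the highest shPla2g4e library stayed well below the lowest shCtrl library.

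*Pcdhga6* had 12.9, 13.0 and 9.86 CPM in shCtrl and 5.19, 6.66 and 5.999 CPM in shPla2g4e libraries (log2 fold change −1.002, edgeR adjusted p = 7.73e-04). *Pcdhga11* had 14.3, 14.3 and 10.2 CPM in shCtrl and 6.99, 6.98 and 6.06 CPM in shPla2g4e libraries (log2 fold change −0.95, edgeR adjusted p = 0.00104). Without shCtrl replicate 2 the adjusted p of *Pcdhga11* was 0.0105. Replicate 3 was the lowest of the shCtrl libraries in *Pcdhga2*, *Pcdhga3*, *Pcdhga12*, *Pcdhga7*, *Pcdhga6* and *Pcdhga11*, but still above every shPla2g4e library.

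The other A members called lower were *Pcdhga5* (log2 fold change −0.83, edgeR adjusted p = 0.00154), *Pcdhga8* (−0.80, adjusted p = 0.00389) and *Pcdhga4* (−0.72, adjusted p = 0.00421). Their shCtrl levels ran from 9.19 to 18.2 CPM and their shPla2g4e levels from 4.94 to 9.03 CPM. The A members that did not pass were *Pcdhga1*, with a value of −0.49 (edgeR adjusted p = 0.0619), and *Pcdhga9*, with −0.45 (adjusted p = 0.248). The calls of *Pcdhga5* (without shCtrl replicate 1), *Pcdhga8* (without shCtrl replicate 1 or 2 or shPla2g4e replicate 1) and *Pcdhga4* (without replicate 1 or 2 of either group) were lost when 1 library was left out, with adjusted p of up to 0.0114, 0.0247 and 0.0319. Scaling by library size alone gave *Pcdhga4* an adjusted p of 0.0102. For *Pcdhga1* the block moved the adjusted p to 0.00570. About 39.5% of the 50-base stretches in the first exon of *Pcdhga4* also occur in other transcripts, against at most 6.67% for every other A member. That exon has 2608 bases, but *Pcdhga4* had only 1570 unshared exon bases. The stretches found elsewhere therefore need not lie in the part that was counted.

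**Figure D3:**
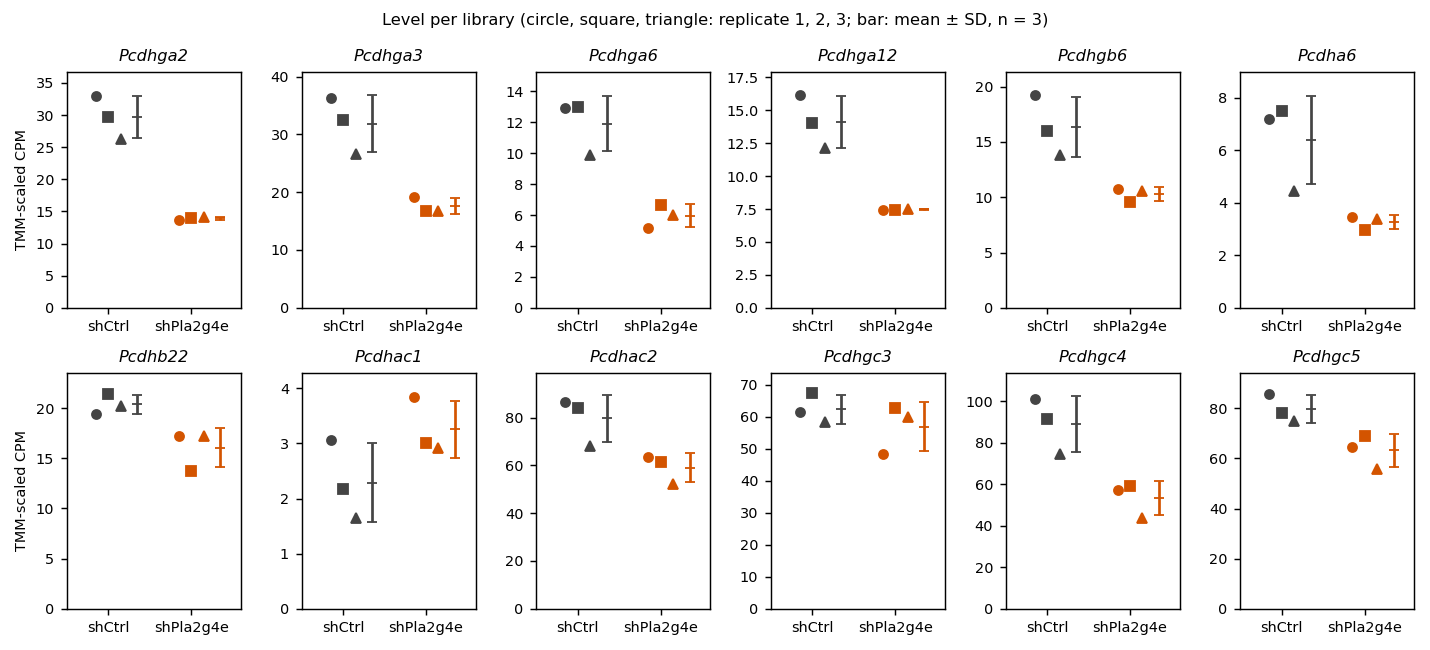
TMM-scaled CPM per library of 12 members (circle, square and triangle are replicates 1, 2 and 3, bars are mean ± SD, n = 3, and each axis starts at 0). The groups are separate in the gamma genes *Pcdhga2*, *Pcdhga3*, *Pcdhga6*, *Pcdhga12*, *Pcdhgb6* and *Pcdhgc4*, whereas they overlap in *Pcdhgc3* and in *Pcdhac1*, the member with the largest positive value.

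The B subfamily of the gamma cluster had the same direction with fewer calls. All 7 members had negative values, with a median log2 fold change of −0.62. Of the 7, 1 was called lower, beside 4.0% of all genes, and 2 with the block, beside 9.02%. *Pcdhgb6* had 19.3, 16.0 and 13.9 CPM in shCtrl and 10.7, 9.57 and 10.6 CPM in shPla2g4e libraries, and its log2 fold change was −0.67 (standard error 0.14, edgeR adjusted p = 0.00532), a call that was lost without replicate 1 or 2 of either group (adjusted p of up to 0.0348) or with scaling by library size alone (0.0109). The other 6 had values from −0.76 for *Pcdhgb8* to −0.40 for *Pcdhgb5*. B members had fewer reads than A members, with a median of 110.2 against 205.7 reads per library, and a larger median standard error, 0.20 against 0.15. *Pcdhgb1*, with a value of −0.62 (edgeR adjusted p = 0.0158), passed with the block (adjusted p = 0.00104).

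Of the 5 C-type genes, 1 was called lower, and 3 with the block, beside 4.0% and 9.02% of all genes. *Pcdhgc4* had 101, 91.2 and 74.7 CPM in shCtrl and 57.1, 59.2 and 43.9 CPM in shPla2g4e libraries. Its groups did not overlap, and its log2 fold change of −0.73 (standard error 0.12, edgeR adjusted p = 7.06e-04) was called. *Pcdhgc5*, which follows it on the chromosome, had 85.7, 78.3 and 75.1 CPM in shCtrl and 64.7, 68.9 and 55.9 CPM in shPla2g4e libraries. Its groups did not overlap either, but its value of −0.33 (standard error 0.09) had an edgeR adjusted p of 0.0248, and of 2.50e-04 with the block. *Pcdhgc3*, which precedes *Pcdhgc4*, had 61.4, 67.3 and 58.3 CPM in shCtrl and 48.2, 62.7 and 59.8 CPM in shPla2g4e libraries. The groups of *Pcdhgc3* overlapped, and its value was −0.13 (standard error 0.10, edgeR adjusted p = 0.467, and 0.231 with the block).

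In the alpha cluster, *Pcdhac2* had 86.5, 84.1 and 68.3 CPM in shCtrl and 63.6, 61.6 and 52.2 CPM in shPla2g4e libraries. Its value of −0.43 (standard error 0.10) lay just outside the threshold with an edgeR adjusted p of 0.0112, and passed with the block (3.43e-06). *Pcdhac1* had 3.06, 2.16 and 1.64 CPM in shCtrl and 3.85, 3.01 and 2.91 CPM in shPla2g4e libraries. It was higher in each of the 3 numbered pairs, but the groups overlapped, and its value of 0.52 (standard error 0.27, edgeR adjusted p = 0.258) did not pass. A difference between C-type genes was not itself tested.

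The alternate alpha genes had values close in size to those of the gamma genes, and 1 of 10 was called, beside 4.0% of all genes. *Pcdha6* had 7.18, 7.50 and 4.44 CPM in shCtrl and 3.47, 2.96 and 3.37 CPM in shPla2g4e libraries, with a log2 fold change of −0.96 (standard error 0.23, edgeR adjusted p = 0.00965). That call was lost when any 1 library other than shCtrl replicate 3 was left out, with an adjusted p of 0.0110 to 0.0664. *Pcdha5* had 10.3, 7.90 and 9.28 CPM in shCtrl and 6.19, 5.96 and 5.20 CPM in shPla2g4e libraries, a value of −0.66 (edgeR adjusted p = 0.0151, and 7.56e-04 with the block). *Pcdha3* had a value of −0.53 (edgeR adjusted p = 0.0354, and 0.00131 with the block).

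Of the 10 alternate alpha genes, 9 had negative values and groups that did not overlap, beside 14.6% of all genes with shPla2g4e lower, and the exception was *Pcdha10* with 2.57 to 3.06 CPM in shCtrl and 2.47 to 3.24 CPM in shPla2g4e libraries, a value of 0.02. The median of the 10 was −0.68. With the block, 8 of the 10 were called lower, beside 9.02% of all genes, and the others were *Pcdha10* and *Pcdha8*, which had less than 1 CPM in every library. Alternate alpha genes had a median of 123.4 reads per library and a median standard error of 0.19. Of the 50-base stretches of their first exon, 10.2% to 33.8% also occur in other transcripts, where reads that map to several places were not counted. The highest shares were those of *Pcdha7* and *Pcdha6*, where part of the first exon was not counted. Their unshared exon bases were 2139 and 1886, against first exons of 2477 and 2507 bases.

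The beta genes form the cluster with the most members that passed the read filter, and none was called by edgeR, DESeq2 or limma-voom. Of the 22, 16 had negative and 6 positive values. *Pcdhb22*, at the far end of the cluster, was the member closest to the threshold, with 19.5, 21.4 and 20.2 CPM in shCtrl and 17.2, 13.8 and 17.2 CPM in shPla2g4e libraries. It was the only beta member whose groups did not overlap, and its value was −0.34 (standard error 0.12, edgeR adjusted p = 0.0763, and 0.0154 with the block). *Pcdhb4* had the largest positive value, 0.36 (standard error 0.22, edgeR adjusted p = 0.344), with 2.97 to 3.93 CPM in shCtrl and 3.64 to 5.37 CPM in shPla2g4e libraries. The most abundant beta gene, *Pcdhb9*, had 18.2, 18.1 and 20.2 CPM in shCtrl and 18.9, 20.5 and 15.4 CPM in shPla2g4e libraries, a value of −0.04 (standard error 0.13). *Pcdhb20* had a value of −0.18 (standard error 0.15, edgeR adjusted p = 0.509). The beta members had a median of 149.8 reads per library and a median standard error of 0.17, close to those of the alpha and gamma members.

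The summed level of each cluster gave the same picture. Gamma members summed to 485, 458 and 401 CPM in shCtrl and to 293, 317 and 286 CPM in shPla2g4e libraries, a mean of 448 ± 42.6 against 299 ± 16.5 CPM (SD, n = 3). Alpha members summed to 164, 153 and 127 CPM in shCtrl and to 111, 107 and 96.4 CPM in shPla2g4e libraries. Neither cluster's groups overlapped, and 66.6% of the shCtrl mean was left for gamma and 70.6% for alpha. Beta members summed to 189, 202 and 185 CPM in shCtrl and to 182, 185 and 178 CPM in shPla2g4e libraries, with 94.6% left. In bulk libraries, fewer cells of a type and less RNA per cell cannot be told apart.

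A ratio of reads within a library does not depend on the scaling between libraries. For each read of the beta cluster there were 2.57, 2.27 and 2.17 gamma reads in shCtrl and 1.61, 1.72 and 1.61 in shPla2g4e libraries. There were 0.870, 0.758 and 0.689 alpha reads for each beta read in shCtrl and 0.610, 0.578 and 0.543 in shPla2g4e libraries. Both ratios were lower in every shPla2g4e library than in every shCtrl library.

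**Figure D4:**
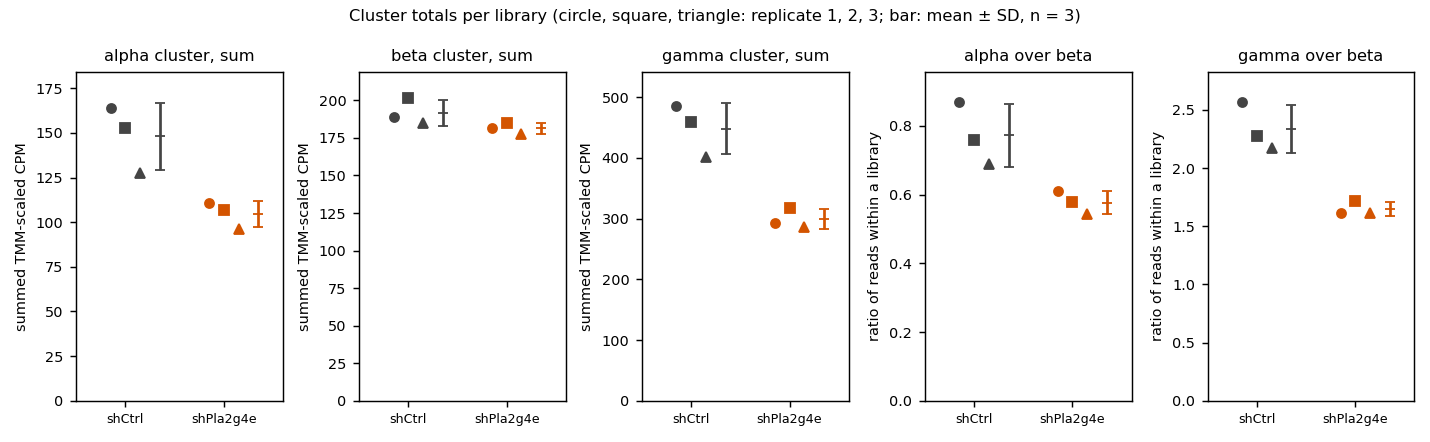
Summed TMM-scaled CPM of each cluster and the ratios of alpha and gamma reads to beta reads, per library (symbols are replicates, bars are mean ± SD, n = 3, and axes start at 0). The alpha and gamma sums and both ratios are separate between groups, whereas the beta sums overlap.

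The makeup of the clusters was also compared as shares of the reads counted for the cluster in each library. The 3 C-type genes of the gamma cluster took 51.2%, 51.7% and 51.8% of its reads in shCtrl and 58.1%, 60.1% and 55.8% in shPla2g4e libraries. The share of *Pcdhgc3* was 13.96% ± 1.12 in shCtrl and 19.1% ± 2.31 in shPla2g4e, that of *Pcdhgc5* 17.8% ± 0.82 and 21.1% ± 1.38, and that of *Pcdhga2* 6.62% ± 0.17 and 4.67% ± 0.26 (SD, n = 3). *Pcdhgc4* went the other way from the other C-type gamma genes, with 19.8% ± 1.12 and 17.8% ± 2.19, and its groups overlapped. A share can rise while the level does not, as for *Pcdhgc5*, whose log2 fold change was −0.33. In the alpha cluster *Pcdhac2* and *Pcdhac1* together took 54.5%, 56.5% and 54.9% in shCtrl and 60.9%, 60.5% and 57.1% in shPla2g4e libraries.

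Along the chromosome, the order of the members and their log2 fold changes had a Spearman rho of 0.59 across the 12 alpha genes and of 0.35 across the 10 alternate alpha genes. Across the 22 beta genes rho was −0.48, across the 21 gamma genes 0.22 and across the 18 alternate gamma genes −0.03. Between the shCtrl level per kb and the log2 fold change, rho was 0.18 across alpha, −0.02 across beta and −0.17 across gamma genes, and 0.36 and −0.62 across the alternate alpha and gamma genes, where the shCtrl level is also the base of the fold change. These are descriptions across neighbouring genes of the same libraries, which are not independent.

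Sites for the seed of the shRNA, bases 2 to 8 of its antisense strand, were counted in the members' transcripts as a description. The strands of sh2, as designed by the study, are shown with the seed and the site that pairs with it in capitals.
sh2 target strand, 5′ to 3′: ggaagatggtgGTGGCCAa
sh2 antisense strand, 5′ to 3′: tTGGCCACcaccatcttcc
The site GTGGCCA was searched on the sense strand in the longest coding transcript of each gene in GENCODE vM21 (GRCm38). No member matched more than 12 consecutive bases of the 19-base target, which *Pla2g4e* matches in full. In vM21 *Pcdhgb8*, which was not called, was annotated without a 3′ UTR. In the deposited counts, however, its exons end at 37974923, as those of *Pcdhga2* do. The gamma transcripts with an annotated 3′ UTR, 20 of 21, all carried the site 2 times in the 3′ UTR of their common last exon. All 12 alpha transcripts carried it 1 time in the coding sequence of their constant exons and 0 times in the 3′ UTR, and *Pcdhac2* carried 2 further sites and *Pcdha8* and *Pcdha10* 1 further site in their own first exon. Of the 22 beta transcripts, *Pcdhb5* and *Pcdhb14* carried it 1 time in the 3′ UTR and *Pcdhb13* 1 time in the coding sequence, and their values were −0.06, −0.09 and −0.09. *Pcdhga6* and *Pcdhga7* carried 2 further sites and *Pcdhga11* and *Pcdhgb4* 1 further site in their own first exon. Since the gamma sites lie in a common exon, they are the same 2 sites in these 20 gamma transcripts, of which 11 belong to members that were called lower and 9 to members that were not called.

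Among the 15799 genes tested with a coding transcript, 1.90% carried the site at least 2 times in the 3′ UTR and 11.4% carried it 1 time there. With the clustered protocadherins left out, 25.7% of the 280 genes with at least 2 sites were called lower, 15.8% of the 1801 genes with 1 site, 5.71% of the 3400 genes with a site in the coding sequence only and 2.87% of the 10263 genes with neither. Their median log2 fold changes were −0.25, −0.13, −0.04 and 0.04. These shares were not adjusted for the length of the 3′ UTR. A match of letters is a description, and the part of these sites in the members' values was not tested.

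**Figure D5:**
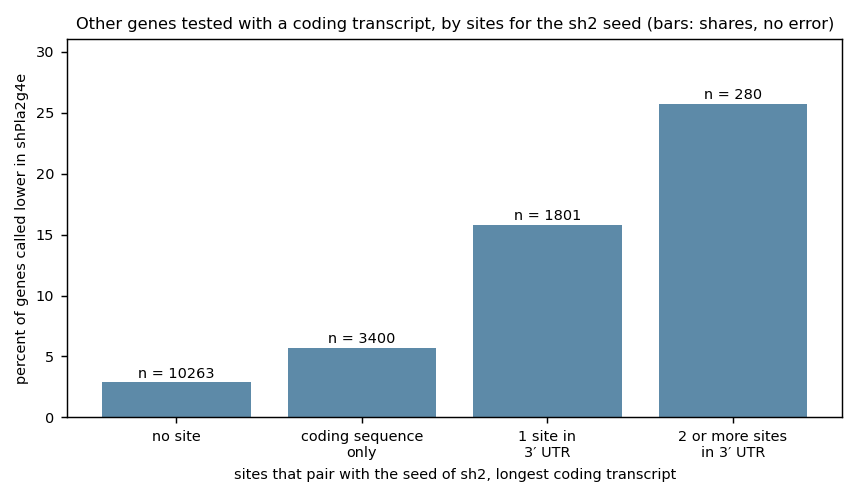
Share of genes called lower in shPla2g4e (edgeR adjusted p under 0.01) by the number and place of sites for the sh2 seed, over all genes tested with a coding transcript other than the clustered protocadherins. Bars are shares of the number of genes printed above them. They run from 2.87% with no site in the 3′ UTR or coding sequence to 25.7% with at least 2 sites in the 3′ UTR. Sites in the 5′ UTR were not considered.

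A list of 34 genes for regulators of the clusters covered CTCF, cohesin, DNA methylation and repressive chromatin. Of these, 2 (beside 4.0% of all genes) were called lower by edgeR and 5 (beside 9.02%) with the block. *Wiz*, a zinc finger protein of the G9a/GLP histone methyltransferase complex, had 152, 128 and 132 CPM in shCtrl and 49.98, 43.3 and 47.02 CPM in shPla2g4e libraries, a log2 fold change of −1.56 (standard error 0.09, edgeR adjusted p = 6.38e-08). *Uhrf1*, which guides maintenance DNA methylation, had 5.09 to 7.77 CPM in shCtrl and 2.43 to 2.80 CPM in shPla2g4e libraries, a log2 fold change of −1.29 (edgeR adjusted p = 8.24e-04). *Ctcf*, the factor that loops the enhancers to the chosen promoters, had 58.3, 63.7 and 62.0 CPM in shCtrl and 52.7, 52.8 and 57.4 CPM in shPla2g4e libraries, and its value of −0.18 (edgeR adjusted p = 0.187) did not pass. *Dnmt3a*, a de novo DNA methyltransferase, had a value of −0.25 (edgeR adjusted p = 0.0529) and passed with the block (adjusted p = 0.00106). The median over the 34 genes was −0.14.

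Of 32 genes for partners and signalling of the clustered protocadherin proteins, 5 were called lower and 2 higher by edgeR, beside 4.0% and 2.48% of all genes. With the block, 10 were called lower and 2 higher, beside 9.02% and 6.50% of all genes, and the median was −0.11. *Src*, a tyrosine kinase, had 87.1 to 104 CPM in shCtrl and 63.0 to 67.1 CPM in shPla2g4e libraries (log2 fold change −0.57, edgeR adjusted p = 3.25e-04). *Ptk2b*, which encodes the kinase PYK2 that the alpha and gamma constant domains bind, had 128 to 152 CPM in shCtrl and 92.5 to 105 CPM in shPla2g4e libraries (log2 fold change −0.49, edgeR adjusted p = 0.00114). *Wasf1*, of the WAVE complex that drives actin branching, had 232 to 270 CPM in shCtrl and 179 to 190 CPM in shPla2g4e libraries (log2 fold change −0.43, edgeR adjusted p = 0.00196), and its call was lost without shCtrl replicate 1 or 2 or shPla2g4e replicate 1 (adjusted p of up to 0.0175).

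*Ctnnb1*, which encodes beta-catenin, went the other way, with 458 to 484 CPM in shCtrl and 609 to 650 CPM in shPla2g4e libraries (log2 fold change 0.42, edgeR adjusted p = 0.00152), and its call was lost without shCtrl replicate 2 or shPla2g4e replicate 1 (adjusted p of up to 0.0247). Of the 12 non-clustered protocadherins, which are adhesion proteins encoded by single genes outside the clusters, 3 were called lower (beside 4.0% of all genes), and with the block 4 lower and 1 higher (beside 9.02% and 6.50%), with a median of −0.17. *Pcdh19* had 87.2, 79.4 and 65.3 CPM in shCtrl and 38.3, 32.6 and 35.4 CPM in shPla2g4e libraries, a log2 fold change of −1.12 (standard error 0.11, edgeR adjusted p = 5.60e-06). *Pcdh11x* had 35.3 to 50.5 CPM in shCtrl and 21.8 to 26.4 CPM in shPla2g4e libraries, a log2 fold change of −0.80 (edgeR adjusted p = 4.99e-04).

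Markers of cell types differed between the groups as well, and their calls stand beside 4.0% of all genes lower and 2.48% higher, or 9.02% and 6.50% with the block. The 6 glutamatergic markers summed to 1004 to 1299 CPM in shCtrl and to 669 to 738 CPM in shPla2g4e libraries, with 2 called lower and 1 higher, and 3 and 2 with the block. Most of the difference between these sums lay in *Slc17a7*, a vesicular glutamate transporter, with 648 to 842 CPM in shCtrl and 289.9 to 312 CPM in shPla2g4e libraries, and the summed ranges of the other 5 overlapped. Of the 6 markers, 3 had negative and 3 positive values. Of the 6 GABAergic markers, 2 were called lower, and 3 with the block, and their sum was 729 to 782 CPM in shCtrl and 599.5 to 666 CPM in shPla2g4e libraries. Of the 11 general neuronal markers, 3 were called lower and 2 higher, and 4 and 3 with the block, and their sum was 5688 to 6235 CPM in shCtrl and 5107 to 5580 CPM in shPla2g4e libraries. Of the 9 astrocyte markers, 3 were called lower, and 7 lower and 1 higher with the block. Their sums were 2911, 3280 and 3736 CPM in shCtrl and 2142, 1979 and 3170 CPM in shPla2g4e libraries, lower in shPla2g4e in each of the 3 numbered pairs although the ranges overlapped. The 8 oligodendrocyte lineage markers summed to 516 to 585 CPM in shCtrl and 536 to 640 CPM in shPla2g4e libraries, and the 8 endothelial and mural markers to 28.9 to 72.9 and 34.1 to 83.5 CPM. With the block, 1 oligodendrocyte lineage marker was called lower and 2 endothelial and mural markers higher. The part of cell makeup in the members' values was not tested.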

How the data were processed

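The authors aligned the reads of poly(A) libraries from a stranded kit with STAR 2.7.0d and deposited raw read counts per gene from featureCounts 1.6.0, per the submitters' processing notes and the file headers, on GENCODE vM28 (GRCm39), whereas the study's methods name mm10 and GENCODE M18. The recorded command held no strand, pair, overlap or multi-mapping option. Symbols came from GENCODE vM21 through gene identifiers (52081 of 55357 matched). vM21 named 2 genes *Pcdha11*, and one of them was called *Pcdha10* after RefSeq. All 21876 genes that reached 6 reads in any of the 6 libraries were compared between 3 shCtrl and 3 shPla2g4e libraries with edgeR 4.0.16 in R 4.3.3 (TMM, quasi-likelihood test, two-sided, Benjamini-Hochberg over all of them, threshold 0.01), after the script had been tested on simulated data. limma 3.58.1 with voom, the study's test, DESeq2 1.42.0, other scalings and filters, a robust fit, a replicate block and leaving out each library were alternatives. Depth was 17054717 to 23570180 counts per library.

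Same-numbered libraries deviated together (their correlations over 10908 genes, those at or above a mean log2 CPM of 3, were 0.392, 0.189 and 0.461, against −0.393 to 0.108 for different numbers). The main fit left the numbers from the labels out, and only the replicate block used them as pairs. Blocked values stand beside results they change. The members and gene lists were chosen with earlier results of these data known. Named are *Pla2g4e*, the C-type genes, every member called, the 3 smallest p and 2 highest levels per kb of each cluster, *Ctcf*, *Wiz* and the 4 smallest p of the regulators and of the partners, and the 2 smallest p of the non-clustered protocadherins. One gene that this rule picks is not reported here. Other members were named after their values were seen. Levels per kb used exon bases that no other annotated gene overlaps, at least 200 of them.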

Additional observations from a re-analysis of the deposited data

How the results depend on the processing

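The count of alpha calls varied more with the setting than that of gamma calls, and the cause was not tested. The replicate block called 23 members lower (9 alpha) and a threshold of 0.05 called 22 (9 alpha), against 12 (1 alpha). The block called 9.02% of all genes lower, against 4.0% in the main fit. Shares over all genes at the other settings are not given. For the alpha cluster alone, 6 were called without a filter, 3 by DESeq2, 2 in the robust fit and 0 with upper-quartile scaling, library size alone, 10 reads in every library, filterByExpr or limma-voom. With each library left out in turn, calls ran from 7 to 13 over all members, from 0 to 2 in alpha and from 7 to 11 in gamma, with 7 in gamma and 0 in alpha without shCtrl replicate 1 or without shCtrl replicate 2. The calls that were lost in at least 1 of these were *Pcdha6*, *Pcdhga4*, *Pcdhga5*, *Pcdhga8*, *Pcdhga11* and *Pcdhgb6*. No alternative called a member higher or a beta member lower. The median of the beta members was −0.0080 with library size alone, and ran from −0.119 to −0.0186 with a library left out, and the log2 ratio of their sum was −0.0054 with library size alone. *Pcdhb9* turned to 0.0306 with library size alone, and ran from −0.134 to 0.0625 with a library left out, with 0.0123 without shCtrl replicate 3 and 0.0625 without shPla2g4e replicate 3. With library size alone 9 gamma members were called, without *Pcdhga4* and *Pcdhgb6*. The alpha and gamma medians moved by less than the spread between libraries under every alternative, and so did their sums under the other scalings, with a library left out and without the member with the most reads. The block lost no call of the unblocked fit among members, and scaling by library size alone moved the median of all genes to 0.10. DESeq2 gave no adjusted p for 2 members.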
